A study of Sus scrofa with 8 samples.

Results

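The genes that sense double-stranded RNA, or act directly on it, were followed through the nuclei of pig retinas after intravitreal (IVT) AAV injection. The set holds 7 of the 35683 genes counted, chosen by name: the RIG-I-like receptors RIGI (also called DDX58), IFIH1 (MDA5) and DHX58 (LGP2), the helicase DDX60, the kinase EIF2AK2 (PKR), the Z-nucleic acid receptor ZBP1 and the editing enzyme ADAR. All 7 were listed by symbol, and the choice was made with earlier results of these data known.

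Double-stranded RNA is a common by-product of virus replication, and cells read it as a sign of infection. RIGI and IFIH1 bind such RNA in the cytosol and signal through MAVS to switch on type I interferon, while DHX58 lacks the signalling domains and tunes both. EIF2AK2 stops protein synthesis and ZBP1 can start cell death when they bind their RNA, whereas ADAR edits adenosines in double-stranded RNA, which lowers its power to activate the sensors. Most of these genes are themselves induced by interferon, so their transcripts are a common readout of an interferon response.

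Single-nucleus RNA sequencing (snRNAseq) had been performed on 8 retinas of 6 female Yucatan minipigs. The AAV-injected animals had received AAV2.7m8/CAG-GFP, a capsid variant of AAV2 with a green fluorescent protein (EGFP) reporter under the ubiquitous CAG promoter, at 5e11 vector genomes per eye in both eyes, and the vehicle-injected animals buffer alone. Every animal, controls included, had had an IVT injection of Vitrase, a hyaluronidase, 2 weeks before the vector, and methylprednisolone starting 2 days before it and then weekly. At week 2 each arm was 1 animal with both eyes sequenced, and at week 4 each arm was 2 animals with the left eye of each. In the labels every group is also a separate batch, of a step left unnamed, and thus batch and treatment cannot be told apart when groups are compared.

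The 8 retinas held between 121544835 and 173614051 unique transcript counts (UMIs), and 350563 nuclei were kept. They were grouped into 56 clusters, of which 46 were named by marker genes, and UMIs were summed per retina in each of 12 cell classes. Levels are given in counts per 1000000 UMIs (CPM) of the class or, for the whole retina, of all kept nuclei. Since nuclear 3' counts depend on the transcript, levels are compared within a gene and not between genes. Nuclei of microglia rose from 148 and 139 in the vehicle-injected retinas of week 4 to 2039 and 1236 in the AAV-injected ones, and lymphocytes from none to 2822 and 2363, while Müller cells numbered 5749 and 6365 against 2399 and 848. The class called microglia is 1 cluster in which all 14 listed microglial markers were raised, but its leading genes, CD163 first, are also those of macrophages, and the 2 cell types were not separated. The 2 arms also filled different clusters of some classes at week 4. One cluster of rods, whose leading genes included PTX3, A2M and IFI44, held 17337 and 23155 rods of the AAV-injected retinas but 184 and 142 of the vehicle-injected ones, and a Müller cell cluster led by HERC5, MX2 and CP held 1897 and 682 against 64 and 38 nuclei. The Müller cell clusters were split at week 2 too, when that cluster held 2247 and 4477 AAV against 21 and 10 vehicle nuclei. EGFP, the vector's reporter, gave 4358 to 11235 UMIs in each AAV-injected retina and 0 to 3 in each vehicle-injected one.

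All 7 genes stood higher in the 2 AAV-injected retinas of week 4 than in either of their controls, in every one of the 10 cell classes compared, and in all nuclei together. DDX60 and IFIH1 were close to absent from most vehicle-injected neurons and reached high levels in glia, microglia and horizontal cells. ADAR, already present everywhere, rose least. Over the 11 units (10 classes and all nuclei), 70 of the 73 gene and unit pairs with enough UMIs to be tested were higher at an adjusted p under 0.05 (edgeR's quasi-likelihood test, 2 against 2 animals, Benjamini-Hochberg over all genes of the unit) and 0 were lower. Over all genes, 4.75% of the pairs tested were called higher. None of the 77 pairs overlapped between arms, where 25.7% of all gene and unit pairs had both AAV-injected retinas above both vehicle-injected ones. In 20 of the 77 pairs the vehicle-injected retinas together held 3 UMIs or fewer, and such a pair can pass the filter on low counts through the AAV-injected retinas alone.

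**Figure D1:**
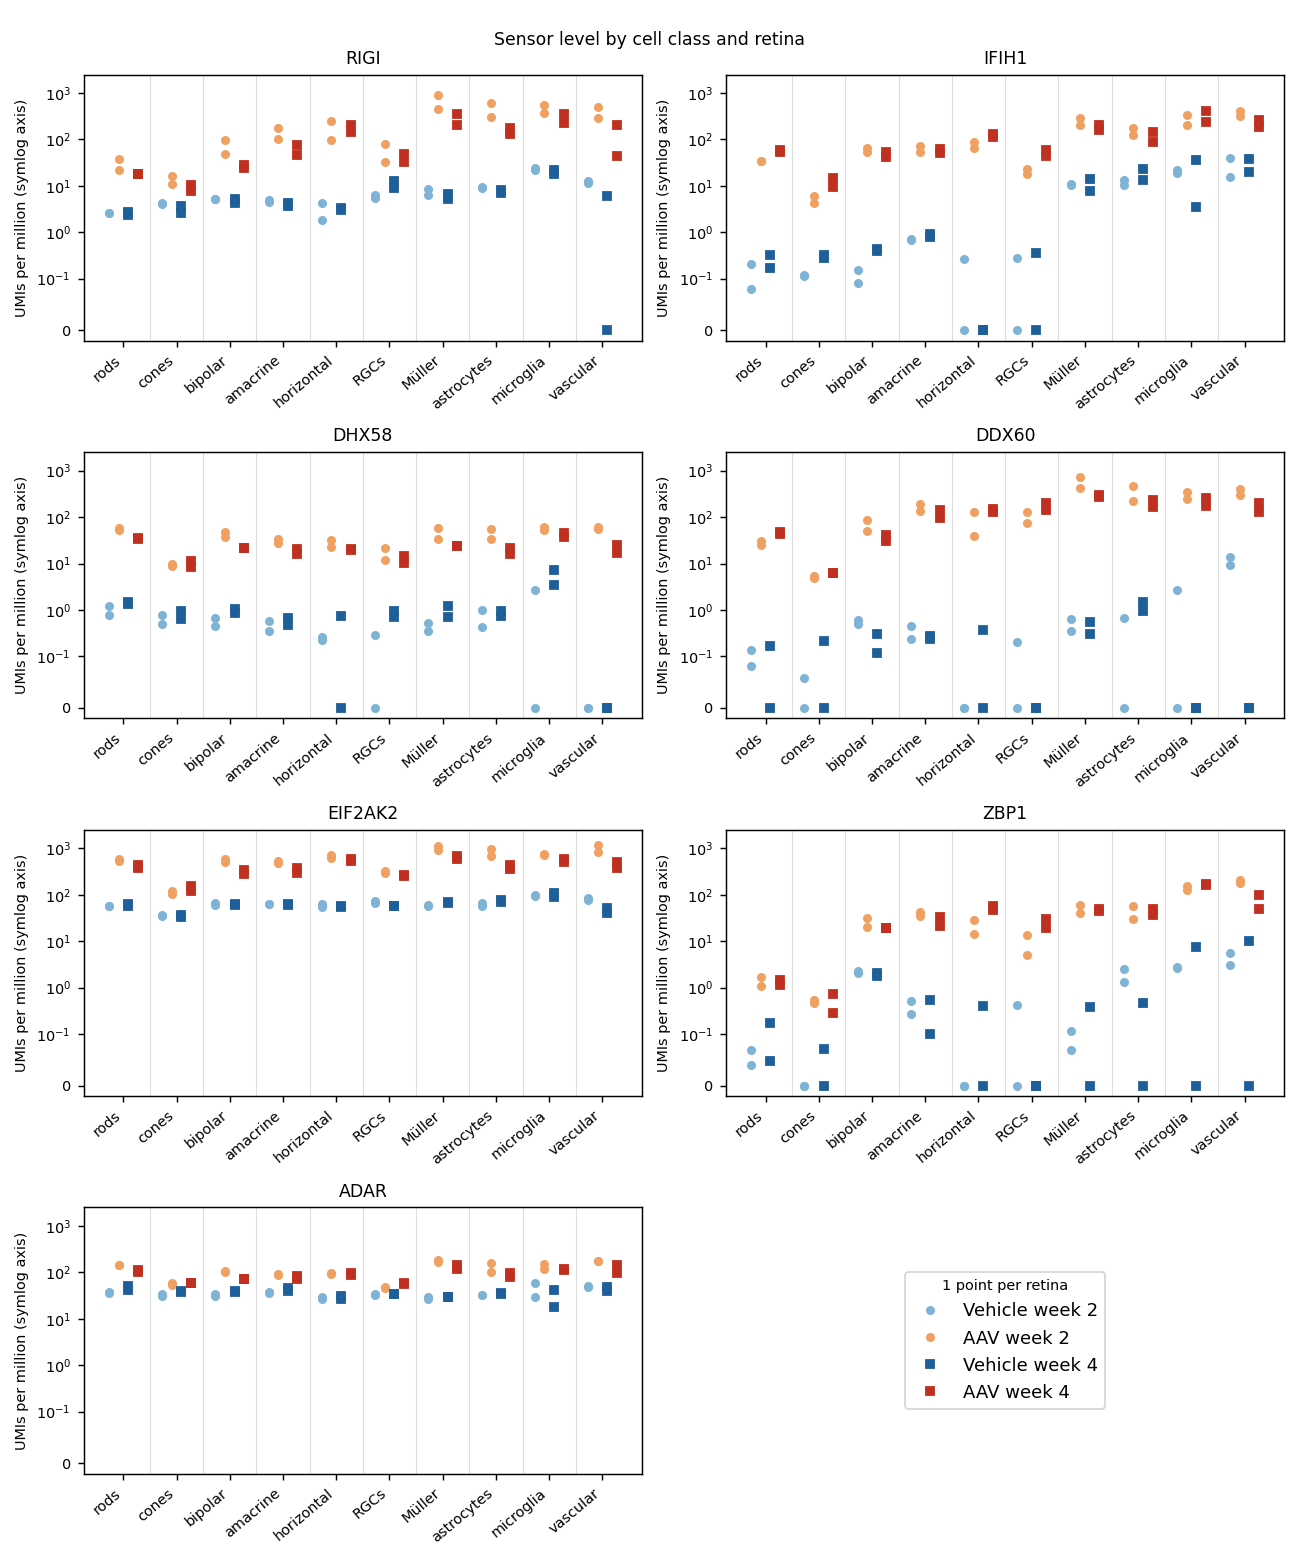
Level of each sensor in CPM of the class (vertical symlog axis, linear below 0.1), by cell class (horizontal axis), 1 point per retina. AAV-injected retinas are orange (week 2) and red (week 4), vehicle-injected ones light and dark blue. The orange and red points lie above the blue ones of the same week in every class and panel, with the narrowest gap for ADAR.

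By class, all 7 genes were called higher in rods, bipolar, amacrine and horizontal cells, retinal ganglion cells (RGCs), Müller cells, astrocytes, microglia and all nuclei. The share of all genes called higher in these units was 4.73%, 1.63%, 1.98%, 3.6%, 2.81%, 11.8%, 8.41%, 6.71% and 6.69% in the same order. In cones, where 0.553% of genes were called higher, IFIH1, DHX58, DDX60 and EIF2AK2 were called, RIGI and ADAR were not, and ZBP1 had too few UMIs to be tested. In vascular cells, the smallest class compared, with 38 and 36 AAV nuclei against 46 and 170, IFIH1, DDX60 and EIF2AK2 were called against a background of 0.861%, ADAR was not, and RIGI, DHX58 and ZBP1 were not tested. A stricter gate, which leaves out nuclei rich in markers of another class, left out 63.9% of vascular nuclei over all retinas. That was the largest share of any class. Under that gate 69 pairs were tested at week 4 in place of 73, and 67 were called.

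**Figure D2:**
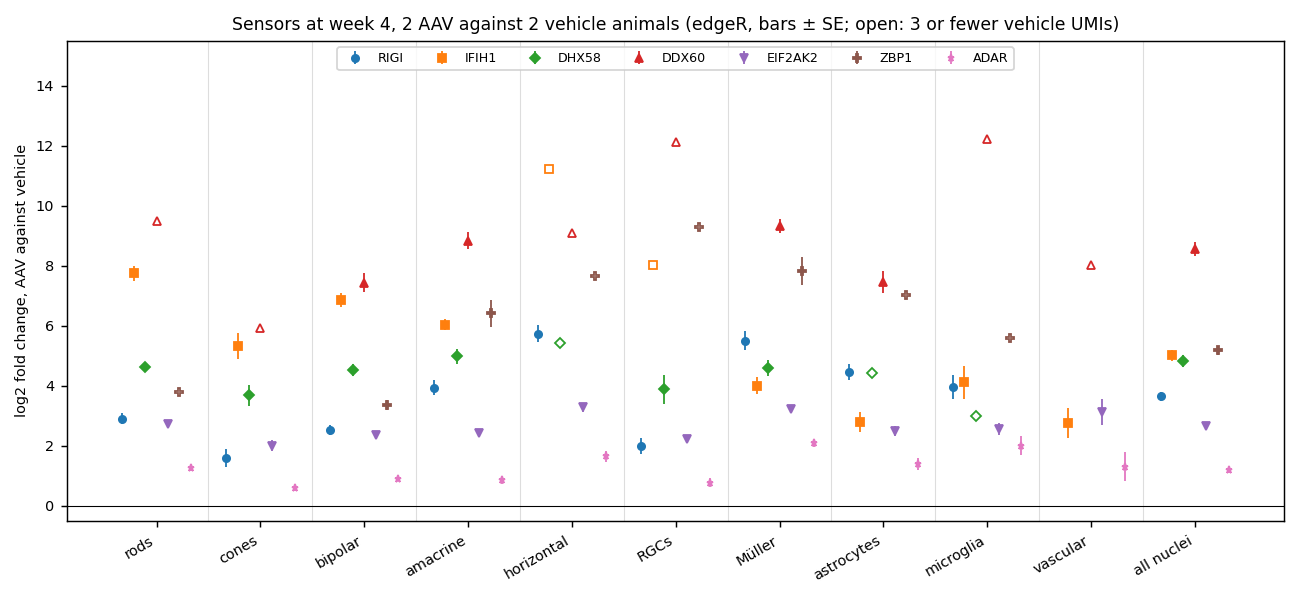
Log2 fold change of AAV-injected over vehicle-injected animals at week 4 (vertical axis) for each sensor by class (horizontal axis), from edgeR with 2 animals per arm, with bars of 1 standard error (SE). Open symbols have 3 or fewer vehicle UMIs and no bar, since their size depends on the prior count of the fit. All points lie above 0, from 0.61 for ADAR in cones upward.

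The stretch before the start of a gene is where an interferon-responsive element would usually be looked for, so the 250 bases before each gene's start were searched for the core letters GAAANNGAAA of such elements, on both strands (TTTCNNTTTC on the other). All 7 genes were found in the RefSeq annotation of Sscrofa11.1, which writes RIGI as DDX58. The letters were in 2 of the 7 windows, those of IFIH1 and ZBP1, and in 648 of 20664 windows (3.14%) of all genes. Both windows are printed because they hold the match, with the matched bases in capitals, 5' to 3' on the strand of the gene. The IFIH1 window is chr15:68985146-68985395 and the ZBP1 window chr17:57986118-57986367, both genes lying on the minus strand.
IFIH1: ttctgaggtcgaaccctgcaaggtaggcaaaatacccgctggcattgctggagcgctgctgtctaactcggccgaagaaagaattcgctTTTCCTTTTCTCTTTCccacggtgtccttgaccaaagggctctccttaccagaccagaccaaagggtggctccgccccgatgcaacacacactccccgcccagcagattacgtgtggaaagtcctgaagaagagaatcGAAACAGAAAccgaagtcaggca
ZBP1: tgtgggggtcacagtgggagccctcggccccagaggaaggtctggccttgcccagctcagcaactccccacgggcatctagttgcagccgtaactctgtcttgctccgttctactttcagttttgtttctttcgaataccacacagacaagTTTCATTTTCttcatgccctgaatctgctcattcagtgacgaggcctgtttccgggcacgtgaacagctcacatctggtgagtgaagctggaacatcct
IFIH1 held 1 match on its own strand, ending 14 bases before the start, and 2 overlapping matches on the other. ZBP1 held 1 match on the other strand, ending 90 bases before the start. A match is a description of the letters and shows no binding.

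RIGI, the receptor for short double-stranded ends that carry a triphosphate, was at a low level in the vehicle-injected classes. In all nuclei it stood at 116.5 and 222 CPM in the left and right AAV-injected eye of week 2, 4.68 and 5.02 in the vehicle-injected eyes of that week, 53.8 and 54.5 in the AAV-injected animals of week 4 and 3.89 and 4.76 in their controls. The 2 eyes of the week 2 animal lay further apart than the 2 animals of week 4, and no AAV value came near a vehicle value. At week 4 the log2 fold change was 3.65 ± 0.14 (SE, adjusted p = 0.000177, edgeR).

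The rise of RIGI differed in size from class to class. In Müller cells, the radial glia that span the retina, it went from 5.09 and 6.84 to 201 and 354 CPM at week 4, a fold of 40.6 (95% counting interval 34.6 to 48.0) between the summed levels. Such intervals cover counting error only and leave out the differences between the animals of an arm. In horizontal cells, the lateral interneurons of the outer retina, RIGI went from 3.27 and 3.01 to 143 and 209 CPM, a fold of 55.6 (34.1 to 97.8). Rods and bipolar cells moved far less. Rods went from 2.30 and 2.73 to 17.8 and 18.3 CPM (fold 7.37, 5.90 to 9.32), and bipolar cells from 4.25 and 5.11 to 24.6 and 27.9 (fold 5.66, 4.92 to 6.53). RGCs had the highest vehicle level among neurons at week 4, 12.5 and 8.98 CPM, and reached 33.1 and 49.5, a fold of 3.86. In cones the 2 arms did not overlap, at 7.74 and 10.5 against 2.55 and 3.66 CPM, but the log2 difference of 1.60 ± 0.29 missed the threshold (adjusted p = 0.0812, edgeR). That pair was called by DESeq2 (adjusted p = 0.00401), without the filter on low counts (0.00678) and without the AAV-injected animal 7248 (0.0129).

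IFIH1, the receptor for long double-stranded RNA, was nearly silent in vehicle-injected neurons and present in vehicle-injected glia. In all nuclei it stood at 64.9 and 86.8 CPM in the AAV-injected eyes of week 2 against 1.99 and 1.79, and at 68.0 and 75.4 in the AAV-injected animals of week 4 against 2.50 and 1.92. All 4 AAV-injected retinas were within a narrow range. At week 4 the log2 fold change was 5.02 ± 0.18 (adjusted p = 0.000157, edgeR).

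In vehicle-injected rods of week 4, IFIH1 gave 7 and 2 UMIs in all, or 0.33 and 0.17 CPM, against 54.5 and 60.3 CPM in AAV-injected rods, a fold of 212 (112 to 464). Horizontal cells held no IFIH1 UMI in either vehicle-injected retina of week 4 and 284 and 307 UMIs in the AAV-injected ones, which is at least 207-fold higher against a floor of 3 UMIs over both vehicle retinas. Müller cells started higher, from 14.3 and 7.61 CPM, and rose to 156 and 201, a fold of 15.4 (13.6 to 17.4). Astrocytes went from 23.2 and 13.2 to 89.1 and 144 CPM, a fold of 6.35, the lowest fold of IFIH1 between summed levels in any class. Vascular cells followed at 6.86-fold, but had the lower log2 fold change in the edgeR fit, 2.76 against 2.80. The vascular call was not made by DESeq2 (log2 fold change 2.87, adjusted p = 0.0617) or after thinning to equal depth (2.34, adjusted p = 0.126, edgeR).

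RIGI and IFIH1 were also set against each other within the same nuclei. The ratio of IFIH1 to RIGI UMIs uses 1 pair of transcripts throughout, so that only its change across classes and groups is read. In rods it was 0.14 and 0.063 in the vehicle-injected retinas of week 4 and 3.06 and 3.29 in the AAV-injected ones, and in bipolar cells it went from 0.092 and 0.083 to 1.69 and 1.91. In Müller cells it moved the other way, from 2.80 and 1.11 to 0.78 and 0.57, and astrocytes went from 2.91 and 1.87 to 0.68 and 0.80. RGCs reached 1.35 and 1.20, cones 1.21 and 1.40 and amacrine cells 1.07 and 0.83, the last from 0.25 and 0.18. The ratio thus rose in every neuron class with enough UMIs and fell in both glial classes, and neither arm overlapped the other in any of these classes. At week 2 the AAV-injected eyes gave lower ratios than at week 4 in rods (1.55 and 0.91) and in Müller cells (0.44 and 0.32). No test was made of a ratio.

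**Figure D3:**
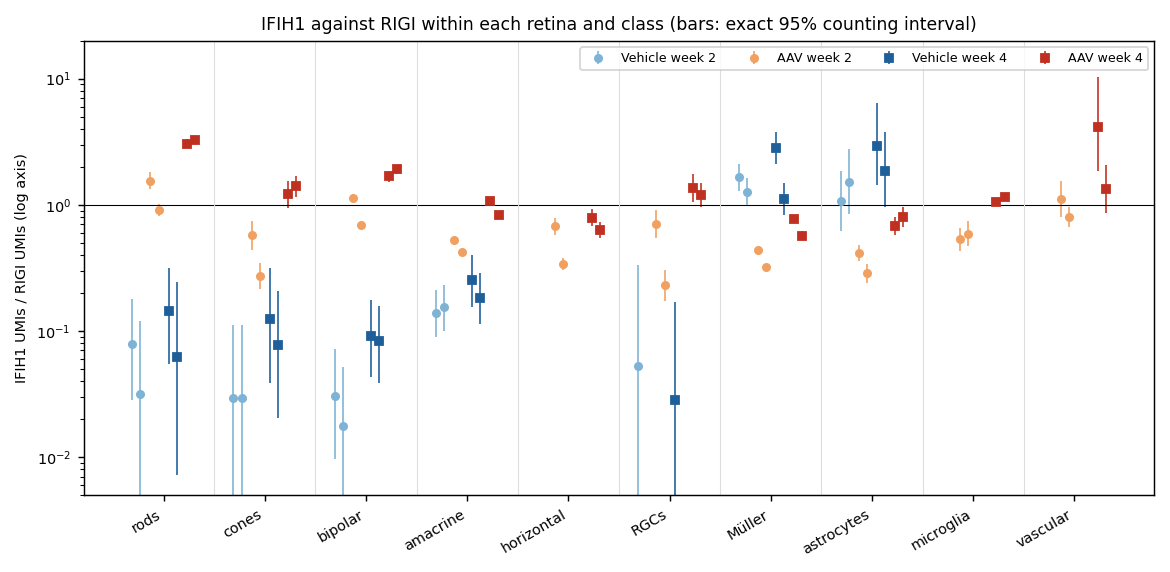
Ratio of IFIH1 to RIGI UMIs (vertical log axis) by class (horizontal axis), 1 point per retina, with exact 95% counting intervals. Retinas with too few UMIs or a ratio of 0 have no point. At week 4 the AAV-injected rods, at 3.06 and 3.29, lie above their controls, and the AAV-injected Müller cells, at 0.78 and 0.57, below theirs.

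DHX58, the RIG-I-like receptor without signalling domains, was low in every vehicle-injected class. In all nuclei it stood at 30.8 and 39.9 CPM in the AAV-injected eyes of week 2 against 0.60 and 0.54, and at 24.1 and 26.2 at week 4 against 1.02 and 0.77. Both weeks were without overlap, and the week 4 log2 fold change was 4.82 ± 0.20 (adjusted p = 0.00018, edgeR). Rods, the class with the lowest ZBP1 after cones, were among the higher classes for DHX58, at 35.6 and 34.4 CPM against 1.504 and 1.37 in their controls. Müller cells, with 24.3 and 23.5 against 1.23 and 0.69, were below rods. Microglia gave 36.5 and 45.1 CPM against 3.53 and 7.31 in controls that held 3 UMIs in all, a fold of 7.46 with a counting interval of 2.54 to 36.3. That microglial call was lost without the vehicle-injected animal 7250, where the log2 fold change was 2.64 against 3.005 with both controls.

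DDX60, a helicase described as a cofactor of the RIG-I-like receptors, had the largest fold of the set in all nuclei. It stood at 118 and 190 CPM in the AAV-injected eyes of week 2 against 0.35 and 0.35, and at 84.7 and 75.9 at week 4 against 0.16 and 0.27. At week 4, 19 and 30 UMIs of DDX60 were found in all nuclei of the vehicle-injected retinas and 12918 and 11765 in the AAV-injected ones, a fold of 378 (286 to 511) and a log2 fold change of 8.56 ± 0.23 (adjusted p = 0.000131, edgeR). The AAV and vehicle values were far apart at both weeks.

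DDX60 was not even across the AAV-injected classes. At week 4 it reached 268 and 303 CPM in Müller cells, the highest class in all 4 AAV-injected retinas, and 6.34 and 6.40 in cones, the lowest class in all 4. RGCs, the neurons whose axons form the optic nerve, held 144 and 205 CPM and no UMI in their controls. Microglia held 170 and 256 CPM against no UMI, which is at least 38.4-fold higher, a weak bound because the control class was small. Against DHX58, another gene of the set, DDX60 gave ratios of 1.34 and 1.26 UMIs in AAV-injected rods, 6.08 and 6.85 in amacrine cells, 10.1 and 20.1 in RGCs and 11.06 and 12.9 in Müller cells of week 4.

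EIF2AK2, the kinase that halts translation on binding double-stranded RNA, was present in every vehicle-injected class. In all nuclei it stood at 503 and 579 CPM in the AAV-injected eyes of week 2 against 57.9 and 58.0, and at 347 and 389.5 at week 4 against 57.6 and 59.0. The 4 vehicle-injected retinas were nearly identical across weeks. At week 4 the log2 fold change was 2.66 ± 0.12 (adjusted p = 0.000198, edgeR), and over the classes it ran from 2.01 in cones to 3.28 in horizontal cells. Müller cells went from 65.99 and 69.0 to 599 and 675 CPM, a fold of 9.18 (8.73 to 9.66). Cones went from 36.7 and 33.4 to 118 and 155, a fold of 3.94 (3.68 to 4.21). In vascular cells its call was lost when the sums were thinned to equal depth (log2 fold change 3.43, adjusted p = 0.0535), as was that of DDX60 (7.12, adjusted p = 0.0863), a setting in which 0 of 2434 genes were called in vascular cells and 301 had an unadjusted p under 0.05 (edgeR).

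ZBP1, which binds Z-form nucleic acid and engages RIPK3, was the member most unevenly spread over the classes. In all nuclei it stood at 23.6 and 31.8 CPM in the AAV-injected eyes of week 2 against 0.64 and 0.79, and at 23.6 and 21.1 at week 4 against 0.65 and 0.58. The AAV values of both weeks were close to each other, and the week 4 log2 fold change was 5.18 ± 0.16 (adjusted p = 0.000131, edgeR). AAV-injected rods of week 4 held only 1.45 and 1.13 CPM, from 65 and 70 UMIs, against 0.047 and 0.17. Their call was lost without the vehicle-injected animal 7250, where the log2 fold change was 2.94 against 3.78 with both controls. Cones were lower still, with 0.73 and 0.29 CPM.

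Inner retinal neurons and glia reached more ZBP1. Amacrine cells went from 0.54 and 0.10 to 21.0 and 32.8 CPM at week 4, Müller cells from 0.39 and 0 to 43.7 and 50.4, and horizontal cells from 0.41 and 0 to 46.5 and 56.5. Microglia had the highest level at week 4, 159 and 168 CPM against 0 and 7.31, followed by lymphocytes at 101 and 109. Bipolar cells stood apart among vehicle-injected neurons, with 1.75 and 2.04 CPM at week 4 and 2.08 and 2.27 at week 2, from 45, 48, 66 and 75 UMIs. Their rise, to 19.4 and 18.8 at week 4, had the smallest fold among the classes tested for ZBP1, 10.1 (8.17 to 12.6). The ratio of ZBP1 to DHX58 UMIs in AAV-injected retinas of week 4 ran from 0.041 and 0.033 in rods to 4.35 and 3.72 in microglia.

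ADAR, the editing enzyme, was present in every class and changed least. In all nuclei it stood at 102 and 110 CPM in the AAV-injected eyes of week 2 against 33.9 and 35.1, and at 87.4 and 94.2 at week 4 against 38.0 and 41.1. The arms did not overlap, and the week 4 log2 fold change was 1.20 ± 0.11 (adjusted p = 0.00229, edgeR). The interferon-induced long isoform and the constitutive short one share their 3' end, so that these counts do not tell them apart. Müller cells rose most, from 30.2 and 30.1 to 121 and 141 CPM (log2 fold change 2.09 ± 0.13, adjusted p = 0.000109, edgeR). In cones ADAR stood at 58.1 and 58.1 against 37.9 and 40.4 CPM, without overlap but not called (log2 difference 0.61 ± 0.11, adjusted p = 0.0868, edgeR). DESeq2 (0.0241) and the test without the filter on low counts (0.0374) called that pair, and DESeq2 did not call ADAR in RGCs (0.117, against 0.0189 with edgeR). In vascular cells ADAR stood at 94.7 and 143 against 40.3 and 49.4 CPM, with an adjusted p of 0.3 (edgeR).

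The classes were ranked by level within each gene. In all 4 AAV-injected retinas, cones were the lowest class for RIGI, IFIH1, DDX60, EIF2AK2 and ZBP1. For DHX58, cones were lowest in 3 of the 4 and RGCs in AAV-injected animal 7249. For ADAR, RGCs were lowest in 3 and cones in that same animal, and the 2 classes lay within 3 CPM of each other in both animals of week 4. The top of the order was less steady. Müller cells led for DDX60 in all 4 and for RIGI in 3, whereas in animal 7248 microglia led for RIGI with 226 CPM, ahead of Müller cells with 201. Microglia led for IFIH1 and ZBP1 in both animals of week 4, and vascular cells for ZBP1 in both eyes of week 2. Lymphocytes, which were compared only among AAV-injected retinas, led for EIF2AK2 at week 4 with 619 and 678 CPM, against 599 and 675 in Müller cells.

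Markers of other cell types moved with some of these results. In AAV-injected rods of week 4 the summed level of 21 lymphocyte markers was 68.8 to 88.5 CPM against 24.1 to 26.9 in their controls, with 20 of the 21 higher in both AAV-injected retinas and none at 0 in all 4. At week 2, when all 7 sensors were likewise higher in AAV-injected rods, the same sum was 23.5 to 25.7 in AAV-injected and 25.7 to 27.0 in vehicle-injected rods, with 4 markers at 0 in all 4 retinas. The sum was also higher at week 4 in cones (63.7 to 85.3 against 27.6 to 42.7), bipolar cells (78.2 to 92.7 against 37.4 to 38.0), amacrine cells (84.4 to 95.6 against 45.9 to 47.9) and RGCs (65.5 to 78.9 against 35.1 to 38.1), with 16, 17, 17 and 11 markers higher. In horizontal cells (293 to 316 against 225 to 279.9), astrocytes (95.1 to 104.5 against 79.8 to 81.35) and vascular cells (55.7 to 56.35 against 33.9 to 40.3) it was higher too, with 13, 7 and 1 of the 21 markers higher. In microglia of week 4 the lymphocyte sum was 321 to 383 against 70.6 to 73.1, with 18 of 21 higher, and in Müller cells 102 to 122 against 49.4 to 65.1, with 14 higher. Müller cell markers went the other way at week 4 in rods, at 44.0 to 49.1 against 150 to 159, and in microglia, at 330 to 375 against 709 to 852. Their sum was lower without overlap also in cones (29.6 to 32.5 against 79.8 to 96.8), bipolar cells (78.8 to 89.0 against 159 to 162), amacrine cells (143 to 165 against 196 to 217), horizontal cells (85.9 to 140.3 against 172 to 216.5), vascular cells (71.7 to 72.4 against 200.5 to 313) and Müller cells themselves (5091 to 5745.5 against 6763 to 6986). It overlapped between groups in RGCs and astrocytes. Rod markers were also lower, at 1173 to 1272 against 2750 to 2872 in Müller cells, 2482 to 2705 against 5516 to 5797 in microglia and 14513 to 16885 against 22554 to 23623 in rods themselves. The rod sum was lower without overlap in cones (4586 to 5125 against 6648 to 8051) and bipolar cells (1960 to 2354 against 3308 to 3388). So it was in amacrine cells (1232 to 1450 against 1723 to 1883), horizontal cells (602 to 970 against 1022 to 1192) and astrocytes (523 to 1162 against 1984 to 2220). It overlapped between groups in RGCs and vascular cells. Microglial markers were higher in rods (24.2 to 29.0 against 17.2 to 20.7), cones (14.2 to 17.2 against 8.59 to 9.36) and amacrine cells (22.9 to 26.9 against 16.5 to 22.0). They were also higher in astrocytes (23.6 to 30.5 against 20.8 to 21.1), vascular cells (46.1 to 55.7 against 0 to 15.4) and microglia themselves (2699 to 3247 against 2131 to 2420). Their sum overlapped between groups in bipolar and horizontal cells, RGCs and Müller cells. In all nuclei, 13 of 14 microglial markers and 21 of 21 lymphocyte markers were higher in both AAV-injected retinas of week 4. Their part in the week 4 results of any class was not tested. In the whole-retina sums, more cells of a type and more RNA per cell cannot be told apart.

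At week 2 each arm was 1 animal, and the values are given without p-values. Of 84 gene and unit pairs over 12 units, which here included the retinal pigment epithelium (RPE), 82 were more than 2-fold higher in the summed UMIs of the AAV-injected eyes, where 6.21% of all pairs were. In all nuclei all 7 members passed that size, against 4.31% of genes. None of the 84 pairs overlapped between the eyes of the 2 animals, where 32.6% of all pairs had both AAV-injected eyes above both vehicle-injected ones. The exceptions to the 2-fold rule were ADAR in cones (1.69, counting interval 1.57 to 1.82) and in RGCs (1.43, 1.22 to 1.67).

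Müller cells held the highest RIGI and DDX60 of week 2 among the classes compared, while vascular cells were above them in both eyes for IFIH1 and ZBP1. Müller cells held 460 and 890 CPM of RIGI in the left and right AAV-injected eye against 6.35 and 8.56, a fold of 97.2 (85.5 to 111). They held 419 and 721 of DDX60 against 0.63 and 0.35, a fold of 1195 (736 to 2091) from 16 vehicle UMIs. The right eye was thus the higher for both, and the 2 arms filled different Müller cell clusters. RPE nuclei, which form the pigmented layer behind the photoreceptors and could be compared at week 2 only, held 58.9 and 82.8 CPM of RIGI against 2.60 and 2.32, and 94.6 and 86.8 of DDX60 against 1.30 and 1.16. The counting intervals leave out the differences between animals.

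The right eye of the AAV-injected animal of week 2 also had the larger share of nuclei with an EGFP UMI, 14.7% against 7.78% in the left eye. In all nuclei the right eye was higher for all 7 members, from 110 against 102 CPM for ADAR to 222 against 116.5 for RIGI. The right eye was not the higher in every class. In RGCs IFIH1 was lower in the right eye, at 18.1 against 22.6, while RIGI was higher, at 78.7 against 32.2 CPM. In cones the right eye was lower for IFIH1 (4.38 against 6.18 CPM), DHX58 (9.04 against 9.80) and EIF2AK2 (102.9 against 118.6). There it was higher for RIGI (15.9 against 10.7), DDX60 (5.48 against 4.83) and ZBP1 (0.53 against 0.47). This is 1 animal, and left and right were not compared by a test.

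Whether the AAV effect differed between weeks was tested as the interaction of treatment and week over all 6 animals, with both eyes of a week 2 animal summed and the lone animals assumed to vary like those of week 4. None of the 77 pairs was called, where 0.632% of all pairs were, and 21 had an unadjusted p under 0.05, as did 13.8% of all pairs. The nearest were DHX58 in Müller cells, with a log2 fold change lower at week 4 by 2.13 (difference −2.13 ± 0.47, adjusted p = 0.0564, edgeR), EIF2AK2 in Müller cells (−0.88 ± 0.20, adjusted p = 0.0605, edgeR) and RIGI in all nuclei (−1.45 ± 0.23, adjusted p = 0.0658, edgeR). With left eyes alone at week 2, as at week 4, these differences were −1.35, −0.67 and −0.92 (adjusted p = 0.216, 0.132 and 0.155, edgeR). Leaving out 1 animal of week 4 leaves 1 animal in its group, so calls of these fits are not counted and only differences are given. Over these fits the difference ran from −2.47 to −1.67 for DHX58 in Müller cells. It ran from −0.98 to −0.79 for EIF2AK2 in Müller cells and from −1.59 to −1.30 for RIGI in all nuclei.

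**Figure D4:**
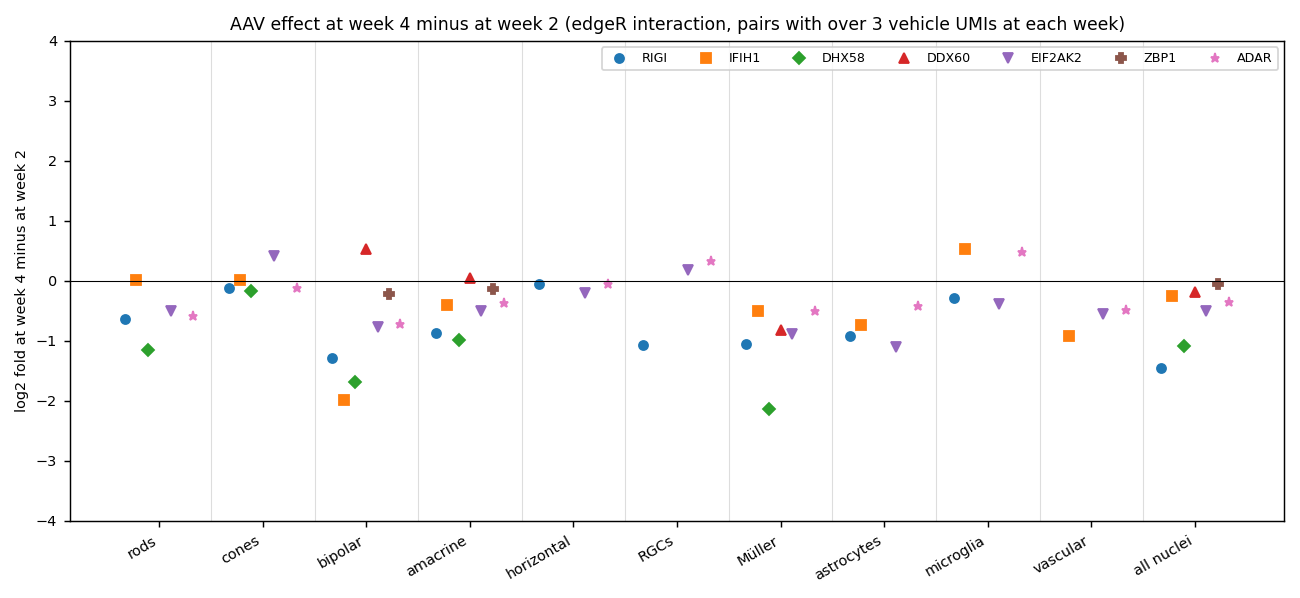
Log2 fold change at week 4 minus that at week 2 (vertical axis) by class (horizontal axis) for the 54 pairs with over 3 vehicle UMIs at each week, from the edgeR interaction over 6 animals. The points range from −2.13 to 0.53, and the share below 0 was not set against that of all pairs. None passed the threshold.

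The levels of the AAV-injected retinas themselves were higher at week 2 in 60 of the 77 pairs, or 77.9%, beside 49.6% of all gene and unit pairs with at least 10 UMIs over the 8 retinas. Müller cells held 460 and 890 CPM of RIGI at week 2 and 201 and 354 at week 4, and bipolar cells 47.6 and 94.9 and then 24.6 and 27.9, without overlap. The exceptions were 5 pairs in cones, 4 in RGCs, 3 in horizontal cells, 2 each in rods and microglia and 1 in astrocytes, with IFIH1 and DDX60 higher at week 4 in rods, cones, horizontal cells and RGCs. IFIH1 in rods stood at 34.7 and 33.6 CPM at week 2 and at 54.5 and 60.3 at week 4, and IFIH1 in RGCs at 22.6 and 18.1 and then 44.7 and 59.5. ZBP1 in RGCs stood at 5.00 and 13.8 and then 18.8 and 30.7. These 3 pairs were without overlap between weeks, but their difference in AAV effect was not called (adjusted p = 1, 0.91 and 0.491, edgeR), and weeks were different batches.

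Within the AAV-injected retinas, nuclei with at least 1 EGFP UMI were compared with nuclei without one in the same class, over 3 animals with animal as a block. EGFP-positive nuclei were 66.03%, 45.7% and 49.4% of RGCs in animals 7221, 7248 and 7249, 14.2%, 7.73% and 9.59% of amacrine cells and 17.6%, 9.47% and 11.6% of bipolar cells. Lymphocytes, which enter from the blood, gave 3.61% in 7248 and 4.02% in 7249, at 1844 to 3657 UMIs per nucleus, and 2.86% in 7221, where 1 nucleus was positive and 34 were negative. In 7248 and 7249 the shares of rods (4.65% and 4.41%), cones (4.03% and 4.80%) and microglia (4.02% and 4.05%) were close to those of lymphocytes. The source of the EGFP UMIs in any of these classes was not tested. In 7221 rods gave 5.58%. Positive nuclei also held more UMIs in all 3 animals in rods, cones, bipolar, amacrine and horizontal cells, RGCs and microglia. In animal 7221 this was 8391 against 5537 per amacrine nucleus. Müller cells showed it in 7221 and 7248 but not in 7249, at 5079 against 5326.

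IFIH1, RIGI and DDX60 were higher in EGFP-positive than in EGFP-negative amacrine and bipolar cells. These were the 6 pairs called of 55 tested over 8 classes, where 1.19% of all pairs were called higher, 2.85% of genes in amacrine and 3.36% in bipolar cells. None of the 55 pairs was called lower. The differences were small beside those between arms. Amacrine and bipolar cells each pool 15 clusters, and whether positive and negative nuclei hold the same mix of clusters was not tested. IFIH1 in amacrine cells stood at 88.8 against 58.2 CPM in animal 7221, 65.6 against 48.2 in 7248 and 71.3 against 61.7 in 7249, higher in 3 of 3 animals (log2 difference 0.47 ± 0.08, adjusted p = 0.000487, edgeR). DDX60 there stood at 206 against 153, 117 against 93.7 and 143 against 139, also higher in all 3 (0.29 ± 0.07, adjusted p = 0.00993, edgeR). Even EGFP-negative nuclei thus held these genes far above any vehicle-injected retina.

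Animal 7221 carried much of this result. It was also the only AAV-injected animal of week 2, so animal, week and batch cannot be told apart here. RIGI in bipolar cells was called (0.49 ± 0.13, adjusted p = 0.0367, edgeR) on 111 against 63.3 CPM in 7221, while 7248 gave 25.8 against 24.5 and 7249 26.4 against 28.2. Summing the eyes of 7221 mixes a right eye that was richer both in EGFP-positive nuclei and in sensors, so the fit was repeated with retina in place of animal as the block. That fit counts the eyes of 7221 as 2 of its 4 blocks. It called 8 of 48 pairs higher, beside 1.64% of all pairs, these 6 among them with log2 differences of 0.21 to 0.44. The other 2, ZBP1 in amacrine and EIF2AK2 in bipolar cells, were not called with animal as the block (adjusted p = 0.0705 and 0.0753, edgeR). DDX60 in amacrine cells of the left eye did not differ in level, at 135 in both kinds of nuclei. Within each eye of 7221, RIGI in bipolar cells was higher in positive nuclei, at 60.5 against 45.6 CPM in the left and 129 against 80.3 in the right. Without 7221 none of the 6 was called. Their log2 differences were then 0.324 for IFIH1, 0.175 for DDX60 and 0.114 for RIGI in amacrine cells. In bipolar cells they were 0.177, 0.102 and −0.013 in the same order. The 1 pair called without 7221 was ZBP1 in bipolar cells, which was lower in EGFP-positive nuclei (−0.58, adjusted p = 0.0328, edgeR). It stood at 13.7 against 20.2 CPM in 7248, at 13.1 against 19.8 in 7249 and at 26.5 in both kinds of nuclei in 7221.

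**Figure D5:**
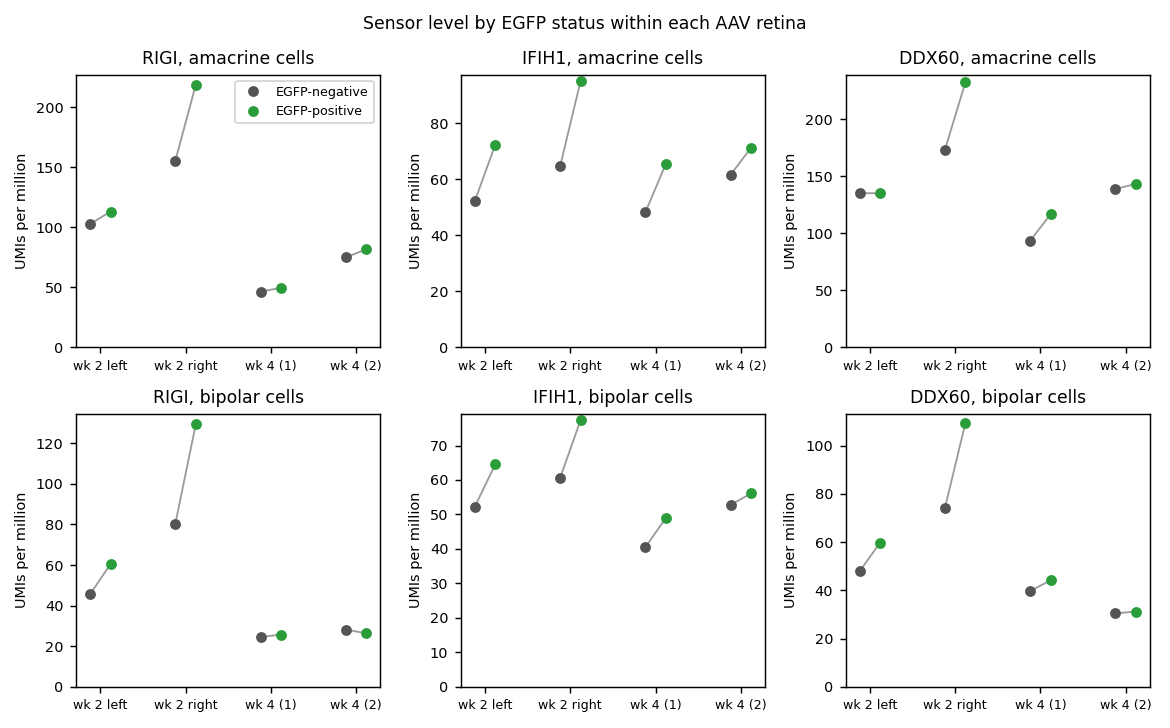
Level in CPM (vertical axis) of RIGI, IFIH1 and DDX60 in EGFP-negative (grey) and EGFP-positive (green) amacrine and bipolar cells, with a line joining the 2 values of each AAV-injected retina (horizontal axis: left and right eye of week 2, animals 7248 and 7249 of week 4). The steepest lines are those of the right eye of week 2, such as 80.3 to 129 for RIGI in bipolar cells, and the line for RIGI in bipolar cells of 7249 falls from 28.2 to 26.4.

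The partners of the sensors were read from lists written by role, also with earlier results of these data known. In all nuclei at week 4, 28 of 79 tested genes passed the threshold, 27 higher and 1 lower, beside 6.69% higher and 4.43% lower among all genes. Among 16 tested genes of RIG-I-like receptor signalling 6 were higher, led by ZC3HAV1 (a zinc-finger antiviral protein, log2 fold change 4.37), TRIM25 (a ubiquitin ligase that activates RIGI, 3.47) and STING1 (the adaptor of cytosolic DNA sensing, 3.25). The list's median log2 fold change was 0.45, against −0.01 for all genes. ZC3HAV1 was called in rods (44.6 and 49.3 CPM against 1.97 and 2.31) as well as in Müller cells (105 and 138 against 8.02 and 9.53).

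Of 14 genes that restrain the RIG-I-like receptors 4 were higher, NLRC5 (5.20) most of all, with TRIM38 (2.14) and RNF125 (0.78). NLRC5, also a transactivator of MHC class I genes, went from 2.08 and 2.15 to 185 and 180 CPM in Müller cells. Of the 11 tested genes around EIF2AK2, which cover its partners and the eIF2 stress pathway, only the stress transcription factor ATF3 was higher (2.63), with a list median of 0.21. ATF3 was called in Müller cells, from 0.54 and 0.23 to 18.8 and 11.3 CPM, in RGCs, from 0.36 and 0 to 14.9 and 22.1, and in horizontal cells, from 1 vehicle UMI to 29 UMIs. It was not called in rods, bipolar or amacrine cells.

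Around ZBP1, 4 of 7 genes were higher in all nuclei: the kinase RIPK3 (2.67), the protease CASP8 (2.63) and its inhibitor CFLAR (1.76) led. By class, 4 of 6 tested were called higher in Müller cells, 3 of 5 in astrocytes and 2 of 4 in RGCs. Rods, bipolar, amacrine and horizontal cells and microglia had 1 each, cones and vascular cells 0. The share of all genes was 0.553% to 11.8% over the classes. The list median was 1.72 in all nuclei and 0.19 to 1.64 over the classes. The part of cell numbers in the all-nuclei values was not tested. RIPK3 stayed scarce, with 9 UMIs in AAV-injected Müller cells and 5 in AAV-injected rods of week 4, against 72 in microglia. CASP8 was called in Müller cells (1.64) and astrocytes (1.86). In microglia, whose number rose, it stood at 47.6 and 47.1 CPM against 24.7 and 54.8 and was not called. Of the relatives of ADAR, the editing enzyme ADARB1 was the 1 gene of all lists that was lower in all nuclei (−0.94 ± 0.15, adjusted p = 0.0153, edgeR). ADARB1 fell in Müller cells, from 249 and 248 to 79.7 and 84.6 CPM, and in astrocytes, from 184 and 144 to 43.8 and 31.9, while amacrine cells stood at 353 and 352 against 383 and 403 and were not called. In Müller cells 2 of the 4 relatives were called lower and 1 higher, beside 11.45% lower and 11.81% higher among all genes there.

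All 3 genes of the endosomal receptor list were higher in all nuclei: UNC93B1, which carries the receptor to endosomes (4.26), TLR3 itself (2.09) and its adaptor TICAM1 (1.60). TLR3 was read by class. It rose in Müller cells, from 1.08 and 1.15 to 12.99 and 12.7 CPM, and in microglia it stood at 29.3 and 39.6 against 74.1 and 73.1, lower without overlap but not called (log2 difference −1.00 ± 0.30, adjusted p = 0.0675, edgeR). The oligoadenylate synthetase family genes OAS1 (5.43), OASL (3.77) and OAS2 (3.23), whose products bind double-stranded RNA, were higher. Of 20 other helicases and binders of double-stranded RNA 5 were higher, with IFIT1 (3.98), IFIT5 (2.89) and ZNFX1 (1.75) first and a list median of 0.12. Without vehicle-injected animal 7250, and likewise without 7251, 19 genes of all lists passed in place of 28, and RNF125, RIPK3 and TICAM1 were not among them.

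The genes whose levels ran most like those of the members across classes and retinas were picked by Pearson correlation of log2(level + 1) over 90 class and retina sums, among 12956 genes. These sums share retinas, batches and depth, so the values describe and test nothing. RIGI was closest to LGALS3BP (0.96), OAS2 and MX1, IFIH1 to IFI44L (0.97), HERC6 and PARP9, and DHX58 to ISG15 (0.93), IRF7 and IFI6. DDX60 was closest to FOXS1 (0.94), NLRC5 and RSAD2, EIF2AK2 to IRF7 (0.95), MX1 and IFI6, ZBP1 to OAS2 (0.92), CMPK2 and NLRC5, and ADAR to ISG15 (0.92), RSAD2 and IFI6. Most of them are known as interferon-induced genes, and FOXS1 encodes a forkhead transcription factor.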

How the data were processed

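The deposited files hold raw UMI counts per gene and nucleus from 4 lanes of each of 8 retinas, which the authors made with Cell Ranger 8.0.0 against Sscrofa11.1 (Ensembl 113) with EGFP added, so the counts are not normalised. Nuclei that stood out by mitochondrial share were removed (6.94% to 12.9% per retina), leaving 350563 of 388491 barcodes. No doublet caller was run, and clusters with mixed markers, with too few markers of any class or with too few nuclei stayed unnamed (5.99% of nuclei). Of the barcode sequences, 18860 (5.11%) occurred in more than 1 lane.

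Up to 2500 nuclei per lane were clustered (Leiden, leidenalg 0.10.2) with 204 genes left out, the sensors, their lists, interferon-response genes and EGFP among them, and the other nuclei were assigned to these clusters. Clusters were named by marker lists. The members and lists were chosen with earlier results of these data known, and the scoring rule, the stricter gate and the retina block for EGFP were set after clusters or data had been seen. UMIs were summed per retina and class, and classes with at least 20 nuclei in each retina were compared.

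Sums were tested with edgeR 4.0.16 (TMM, filterByExpr, quasi-likelihood test, Benjamini-Hochberg over all genes of a unit, threshold 0.05). SEs were taken from the log2 fold change and its F statistic and are approximate. Alternatives included DESeq2 1.42.0. At both weeks, folds of summed counts carry exact 95% counting intervals, which cover counting error only. A vehicle sum of 0 was set to 3 counts over the group. The labels name each animal, so replicates of week 4 are animals. Named pathway genes were, in each list, up to 3 called genes with the largest absolute log2 fold change in all nuclei. The count of 1 list is not reported here. In simulated counts for rods, 43% of genes changed 2-fold and 94% of those changed 8-fold were recovered, and 9.87% of the calls were unchanged genes. The same shares were 11% and 82% in microglia and 74% and 100% in RGCs, with 8.82% and 10.3% of calls unchanged.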

Additional observations from a re-analysis of the deposited data

How the results depend on the processing

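At week 4 the count of called pairs was 67 to 74 under 12 alternatives, and none of 872 single values compared changed sign while 12 calls were lost or gained. Of the pairs that differ between weeks, 0 in the reported test, 1 was called under the stricter gate (EIF2AK2 in Müller cells). Leaving out a week 4 animal leaves 1 animal in its group, and calls between weeks in those fits are not counted here. The EGFP count of 6 ranged from 1 to 9 when an animal was left out. RIGI in bipolar cells ran from −0.013 without 7221 to 0.65 without 7249 on the log2 scale. With at least 2 EGFP UMIs 4 of 28 pairs were called, among them ZBP1 in bipolar cells as lower, and the calls of DDX60 and RIGI in amacrine cells (log2 differences 0.25 and 0.34, adjusted p = 0.312 and 0.139, edgeR) and DDX60 in bipolar cells (0.31, adjusted p = 0.142) were lost, against reported differences of 0.29, 0.35 and 0.41. With nuclei thinned to 1000 UMIs IFIH1 in bipolar cells was lost (0.3, adjusted p = 0.096, edgeR). The pathway count of 28 ranged from 19 to 29 when an animal was left out and was 32 by DESeq2. At week 2, 80 to 82 pairs passed 2-fold. The causes of these changes were not tested. No paired analysis was possible because the AAV and vehicle arms hold different animals, and the labels give no link between them. The EGFP comparison within AAV-injected retinas was blocked by animal. Depth limits the small vehicle-injected classes, where horizontal and vascular cells each had 4 of 7 sensors at 3 UMIs or fewer, and microglia and RGCs 3.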
